A study of Mus musculus with 20 samples.

Results

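The comparison described here set the 4 libraries of Tie2Cre_H2Abf hosts against the 3 libraries of Tie2Cre hosts, chosen by their titles, which makes 7 of the 20 libraries of the series. All were bulk RNA-seq libraries of CD31-positive endothelial cells sorted from tumours of E0771 cells. These are a mammary carcinoma line of the mouse, here grown in the mammary fat pad of hosts of the C57BL/6J strain until the tumours reached a set volume. Cells were enriched on CD31 microbeads and sorted by flow cytometry into TRIzol LS. Both groups carried Tie2Cre, a Cre recombinase transgene under the Tie2 (Tek) promoter, which is active in endothelial cells and also in blood cells. The Tie2Cre_H2Abf hosts had in addition a homozygous floxed H2-Ab1 allele (Tie2Cre;H2Ab fl/fl in the labels), and the submitters class them as CD4+ T cell deficient. The Tie2Cre hosts are classed as CD4+ T cell competent. The labels give no sex, age or litter, and do not say that the libraries of a group came from separate animals, so p-values refer only to the spread between libraries, which may be technical. That spread was estimated over all 20 libraries; fitted on the 7 alone, Fbln2 was the 1 gene called.

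H2-Ab1 encodes the beta chain of I-A, the MHC class II molecule that C57BL/6 mice show on the cell surface. Class II molecules present peptides to CD4+ T cells, and their beta and alpha chains are assembled with the invariant chain Cd74 and loaded with help of the H2-DM complex. Professional antigen-presenting cells express them all the time, while endothelial cells express them mainly under interferon-gamma, through the coactivator Ciita. Because Tie2Cre is active in blood cells as well, the floxed allele can be deleted in both compartments.

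Class II genes share a promoter module, the X and Y boxes, through which Ciita is recruited, and class I promoters hold a related module. The 250 bases before the start of 3 class II genes and 1 class I gene that recur below are printed to show this shared feature. They are RefSeq promoters of build GRCm38.p6, 5′ to 3′ on the gene's strand, and the capitals mark the core letters TGATTGG of the Y box and TGATGA of the X box region on either strand. H2-Aa is at chr17:34287824-34288073 (minus strand), H2-Eb1 at chr17:34305617-34305866, H2-DMb1 at chr17:34152941-34153190 and H2-Q7 at chr17:35438905-35439154 (plus strand for these).
H2-Aa: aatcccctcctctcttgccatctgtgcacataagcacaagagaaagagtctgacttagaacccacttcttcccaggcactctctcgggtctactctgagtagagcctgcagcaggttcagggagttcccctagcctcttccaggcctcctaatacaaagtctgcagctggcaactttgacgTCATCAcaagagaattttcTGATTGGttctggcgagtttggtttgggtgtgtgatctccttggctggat
H2-Eb1: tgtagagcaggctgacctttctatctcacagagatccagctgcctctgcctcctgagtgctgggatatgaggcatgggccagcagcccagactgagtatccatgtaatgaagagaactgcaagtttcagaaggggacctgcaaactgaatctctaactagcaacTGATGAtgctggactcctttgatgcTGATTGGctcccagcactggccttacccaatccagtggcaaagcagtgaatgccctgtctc
H2-DMb1: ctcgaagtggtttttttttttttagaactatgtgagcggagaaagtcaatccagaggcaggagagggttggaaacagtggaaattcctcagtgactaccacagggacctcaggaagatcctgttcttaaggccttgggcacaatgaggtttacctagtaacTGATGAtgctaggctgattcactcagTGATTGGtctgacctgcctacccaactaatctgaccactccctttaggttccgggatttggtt
H2-Q7: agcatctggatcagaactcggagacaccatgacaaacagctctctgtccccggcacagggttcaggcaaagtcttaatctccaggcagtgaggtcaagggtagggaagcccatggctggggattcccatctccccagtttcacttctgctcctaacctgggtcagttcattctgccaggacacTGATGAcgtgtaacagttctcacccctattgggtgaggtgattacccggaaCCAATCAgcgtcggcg

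In the 3 class II promoters the first base of the X letters lies 19 bases (H2-Aa), 25 bases (H2-Eb1) and 26 bases (H2-DMb1) upstream of that of the Y letters. The X letters of H2-Aa stand on the other strand than in H2-Eb1 and H2-DMb1. In H2-Q7 the distance is 51 bases and the Y letters stand on the other strand than in the 3 class II promoters. Only these exact letters were searched for. In H2-Q7 the letters attgg, a part of the Y letters, also stand uncapitalised between the marked stretches. Which of these is the Y box of the class I module was not tested, so the 51 bases describe the marked letters only. Promoters were in the table for 12 of the 16 genes of the class II list (13 promoters) and for 20 of the 23 genes of the class I list (22 promoters). TGATTGG was in 8 of the 13 and 9 of the 22, TGATGA in 3 and 7, and both in 3 and 5. Over all 32851 promoters of the same length, 7.23% held TGATTGG, 10.5% held TGATGA and 0.761% held both. The letters were chosen with these promoters in view, and a match is a description of the sequence.

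The 7 libraries held 1543847 to 11478902 counts, of which 508443 to 1938969 lay in protein-coding genes outside satellite-like repeats. Ribosomal RNA, with that of mitochondria, and other abundant RNA took 72.3% to 86.7% of the counts in Tie2Cre_H2Abf and 43.8% to 77.8% in Tie2Cre. Besides noncoding RNA this class held the protein-coding gene Lars2, so it overlaps the protein-coding counts. Tie2Cre_9501 stood apart. It had the lowest total, 19.7% of its counts fell on satellite-like genes against 0.00287% to 2.08% in the other 6 libraries, and its median Spearman correlation with them was 0.465 against 0.724 to 0.879 for the others. Results are therefore given with and without it. The labels name no batch. TMM scaling factors, which enter every scaled level below, were 0.523 in Tie2Cre_H2Abf_9576, 0.752 in Tie2Cre_H2Abf_9582, 1.04 in Tie2Cre_H2Abf_9583 and 0.602 in Tie2Cre_H2Abf_9589. In Tie2Cre_9501, Tie2Cre_9502 and Tie2Cre_9504 they were 1.77, 0.931 and 1.35.

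H2-Ab1, the targeted gene (chr17:34257689-34269419), was lower in every Tie2Cre_H2Abf library than in any Tie2Cre library. Its level was 6.37, 1.19, 0.712 and 4.34 CPM (counts per effective library size, scaled with TMM factors) in Tie2Cre_H2Abf_9576, Tie2Cre_H2Abf_9582, Tie2Cre_H2Abf_9583 and Tie2Cre_H2Abf_9589, and 25.3, 96.2 and 60.0 CPM in Tie2Cre_9501, Tie2Cre_9502 and Tie2Cre_9504. All values below follow this order. The 2 groups were far apart, and the other 13 libraries of the series, from 46.2 to 184 CPM, also lay above all 4. The fall was 19.1-fold (log2 change -4.26 ± 0.59, SE; adjusted p = 0.00214 by edgeR's quasi-likelihood test with Benjamini-Hochberg adjustment). Without Tie2Cre_9501 it was -4.62 ± 0.60 (adjusted p = 0.00042). The residual signal was small in counts, 36, 7, 4 and 30, against 67, 789 and 476 in Tie2Cre.

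H2-Aa, the alpha chain gene beside it, gives a reference within each library. The CPM of H2-Ab1 was 4.53%, 1.09%, 0.820% and 5.20% of that of H2-Aa in Tie2Cre_H2Abf, against 48.2%, 93.5% and 77.1% in Tie2Cre. RSEM's effective length of H2-Ab1 was 361, 913, 349 and 504 bases in Tie2Cre_H2Abf and 725, 866 and 930 bases in Tie2Cre, while that of H2-Aa stayed within 695 to 823 bases. With effective lengths as offsets the change of H2-Ab1 was -3.24 and missed the threshold (adjusted p = 0.0908). A count over a whole gene does not show which exons the remaining reads came from, and the labels do not name the floxed exon. In bulk RNA, fewer cells with an intact allele and less H2-Ab1 RNA per cell cannot be told apart.

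No other class II gene passed the threshold. Of the 14 class II list members tested 1, H2-Ab1, was called, and 9 of 14 had an estimate above 0 (list median 0.83, against -0.24 over all 14875 genes tested). Of all genes tested, 0.0202% were called. Cd74, the invariant chain, was at 960, 496, 333 and 768 CPM in Tie2Cre_H2Abf and at 111, 311 and 204 CPM in Tie2Cre, a difference of 1.61 ± 0.54 (adjusted p = 0.576). The groups did not overlap, but the lowest Tie2Cre_H2Abf and the highest Tie2Cre library were close. H2-DMb1, a chain of the peptide editor H2-DM, was at 32.0, 29.1, 14.9 and 38.1 CPM against 1.89, 4.39 and 10.7 CPM (2.30 ± 0.75, adjusted p = 0.576). Its partner H2-DMa was at 21.1, 21.7, 6.58 and 18.7 CPM against 0.756, 5.36 and 8.69 CPM, and 1 Tie2Cre_H2Abf library lay among the controls.

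The other chain genes differed between themselves. H2-Eb1, the I-E beta chain, was at 78.4, 85.0, 43.6 and 68.5 CPM against 38.2, 30.2 and 22 CPM (1.2 ± 0.53, adjusted p = 0.576), with no overlap. H2-Aa, at 141, 109, 86.8 and 83.5 CPM against 52.5, 103 and 77.7 CPM, overlapped (0.43 ± 0.51, adjusted p = 0.837). Ciita itself was low, at 15.4, 1.86, 8.01 and 6.51 CPM against 0.378, 2.93 and 0.126 CPM, and 1 library overlapped (2.70 ± 1.22, adjusted p = 0.576). At an unadjusted p below 0.05, 6 of the 14 members were higher and 1, H2-Ab1, was lower. Over all genes these shares were 2.69% and 5.86%, and over genes with a mean of at least 10 CPM 5.59% and 2.28%. The 6 were Cd74, H2-DMa, H2-DMb1, H2-Eb1, Ciita and H2-Ob, a chain of the H2-DM inhibitor H2-O, which had 24 counts in Tie2Cre_H2Abf_9583, 20 in Tie2Cre_H2Abf_9589, 1 in Tie2Cre_H2Abf_9576 and 0 in the other 4 libraries. Without Tie2Cre_9501 the list median was 0.79 and 3 members were higher at an unadjusted p below 0.05, as were 295 of all 16042 genes in that fit.

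**Figure D1:**
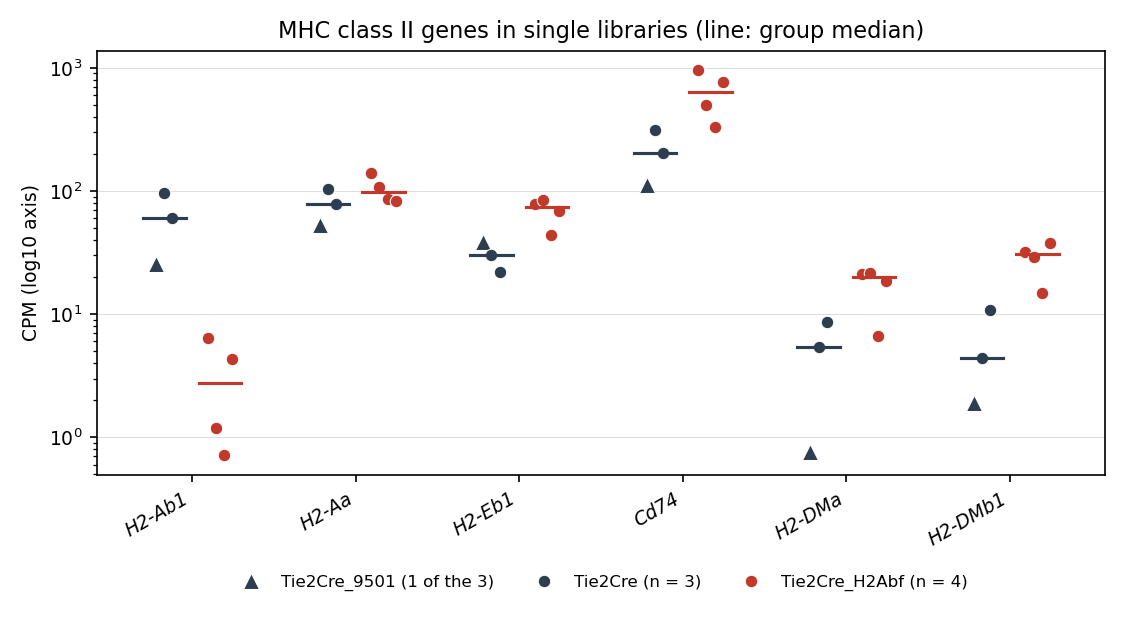
CPM (log10 axis) of 6 class II genes in single libraries of Tie2Cre (dark) and Tie2Cre_H2Abf (red), with Tie2Cre_9501 as a triangle and the group median as a line. H2-Ab1 is the one gene whose 4 Tie2Cre_H2Abf libraries lie below Tie2Cre, at 0.712 to 6.37 against 25.3 to 96.2 CPM, while Cd74, H2-DMb1 and H2-Eb1 lie above it without overlap.

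Antigen-presenting blood cells also express class II genes, so their markers were set beside these values. The summed level of 24 macrophage and monocyte genes was 195, 1232, 452 and 174 CPM in Tie2Cre_H2Abf and 422, 585 and 553 CPM in Tie2Cre. The 2 libraries with the highest Cd74, Tie2Cre_H2Abf_9576 and Tie2Cre_H2Abf_9589, had the lowest macrophage sums of the 7. That pairing was picked after the values were seen and was not tested. The median change of the 24 tested genes was -0.02. Adgre1 (F4/80) was at 4.34 to 21.7 CPM against 5.92 to 25.7 CPM, and Lyz2 at 8.83 to 154 against 24.2 to 71.5 CPM. The 12 dendritic cell genes summed to 59.1 to 108 CPM against 57.6 to 118 CPM. Irf8 (23.2 to 69.5 against 9.45 to 39.6 CPM) and Zbtb46 (17.4 to 30.6 against 16.9 to 89.9 CPM) made up most of this. Irf8 is also in the interferon-gamma response list, so its level does not stand for dendritic cells alone. Flt3 was at 0 in 5 of the 7 libraries. Clec9a was at 0 to 3.72 against 0 to 0.488 CPM and Ccr7 at 0 to 8.01 against 0 CPM. Xcr1 was at 0 to 1.07 against 0.975 to 3.40 CPM and Siglech at 0 to 0.712 against 0 to 5.67 CPM. Of the 8 tested, 3 had an estimate above 0 and 5 below. Irf8 was highest in the 2 libraries with the highest Cd74, at 66.8 and 69.5 CPM. The 11 B cell genes summed to 1.01 to 8.90 against 3.17 to 16.6 CPM. All these sums overlapped between the groups, and the part of such cells in the class II values was not tested.

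Over all 14875 genes tested, 3 passed the threshold of 0.05, and all 3 were lower in Tie2Cre_H2Abf: H2-Ab1, Fbln2 and Fabp4. None was higher by edgeR, against 400 at an unadjusted p below 0.05 (871 were lower), 22 by DESeq2 and 1 by limma-voom. Fbln2 (chr6:91212455-91272540), the matrix glycoprotein fibulin 2, was at 67.5, 52.7, 91.3 and 103 CPM in Tie2Cre_H2Abf and at 546, 630 and 317 CPM in Tie2Cre. The highest Tie2Cre_H2Abf library lay far below the lowest Tie2Cre library, and the fall was 6.32-fold (-2.66 ± 0.41, adjusted p = 0.0067). Fabp4 (chr3:10204088-10208576), a fatty acid binding protein of adipocytes and capillary endothelium, was at 48.3, 13.7, 28.8 and 24.2 CPM against 214, 201 and 156 CPM. Its fall was 6.61-fold (-2.72 ± 0.49, adjusted p = 0.0401). Again the groups did not overlap.

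The other backgrounds place these levels. For Fbln2, Tie2Cre_9502 and Tie2Cre_9501 were the highest libraries of the series, and the other 13 libraries ranged from 55.0 to 402 CPM. The other backgrounds without CD4+ T cells differed: TCRKO, at 55.0 to 76.9 CPM, lay within the range of Tie2Cre_H2Abf, and CD4KO, at 127 to 402 CPM, lay above it, as did WT, the wild type, at 136 to 320 CPM. For Fabp4 the other 13 libraries ranged from 17.7 to 178 CPM, and TCRKO, at 25.8 to 47.4 CPM, and WT, at 17.7 to 79.9 CPM, overlapped Tie2Cre_H2Abf, while CD4KO, at 60.9 to 178 CPM, did not. Without Tie2Cre_9501 Fbln2 was still called (-2.59 ± 0.46, adjusted p = 0.0383), whereas Fabp4 kept its estimate but not its call (-2.63 ± 0.52, adjusted p = 0.155). Of adipocyte markers, Adipoq and Plin1 were at 0 in 6 of the 7 libraries each and never above 0.712 CPM. Cidec, Retn and Lep were at 3.78, 3.40 and 3.02 CPM in Tie2Cre_9501 and at most 0.756 CPM in the other 6, and their part in the Fabp4 result was not tested.

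**Figure D2:**
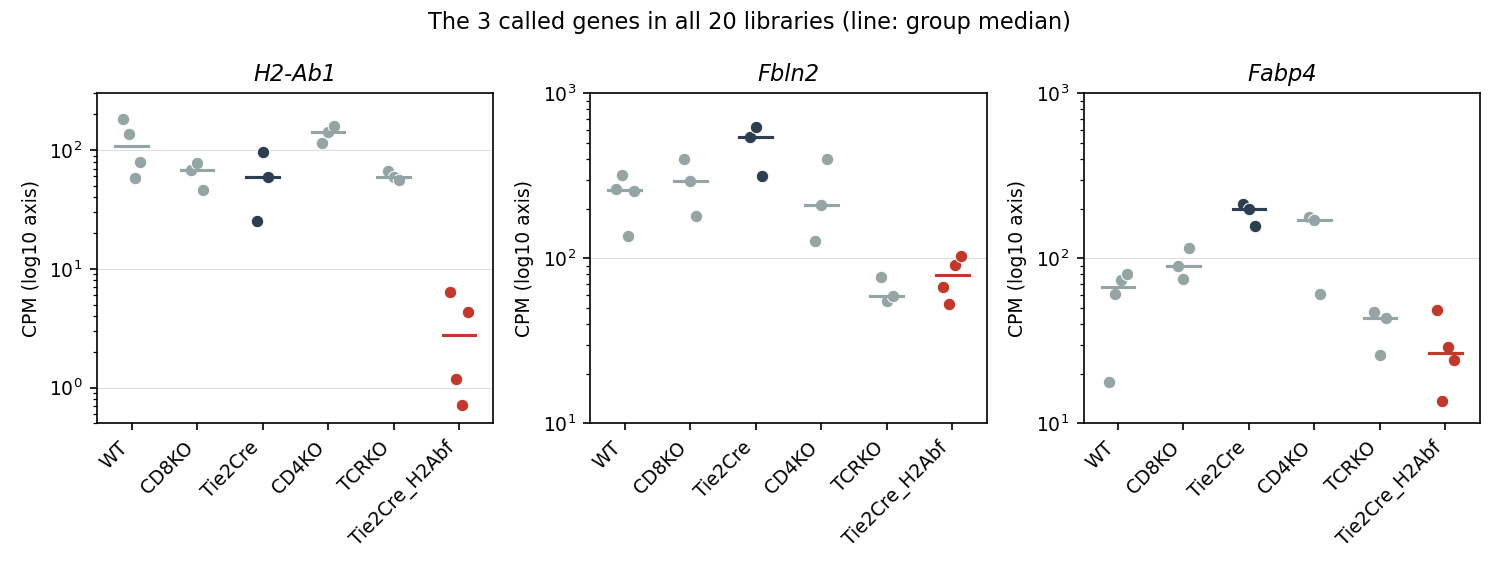
CPM (log10 axis) of the 3 called genes in each of the 20 libraries by host background, with group medians as lines. H2-Ab1 is low only in Tie2Cre_H2Abf, while Fbln2 is at 55.0 to 76.9 CPM in TCRKO but 127 to 402 CPM in CD4KO, and Fabp4 at 25.8 to 47.4 CPM in TCRKO, 17.7 to 79.9 CPM in WT and 60.9 to 178 CPM in CD4KO.

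Class I genes and genes of the interferon-gamma response lay mostly above Tie2Cre in estimate, none past the threshold. In the class I and peptide loading list 18 of 23 members had an estimate above 0, with a median of 0.71. At an unadjusted p below 0.05, 6 were higher (2.69% of all genes) and 0 lower. Without overlap between the groups 5 members were higher and 1 was lower, against 5.28% and 3.76% of all genes. Among genes with a mean of at least 10 CPM, 5.59% were higher at that p. Without overlap 9.66% of these were higher and 3.67% lower. H2-Q7, a class Ib gene of the Qa-2 antigen, was at 610, 452, 377 and 556 CPM in Tie2Cre_H2Abf and 110, 206 and 205 CPM in Tie2Cre. The 4 libraries lay well above the 3 (1.52 ± 0.34, adjusted p = 0.217). H2-Q6 showed 379, 154, 145 and 311 CPM against 60.1, 112 and 92.6 CPM (1.48 ± 0.41, adjusted p = 0.576). RSEM shares reads between these near-identical genes, so the pair is better read as 1 measurement. Tap1, which carries peptides into the endoplasmic reticulum, was at 159, 135, 121 and 207 CPM against 38.5, 105 and 85.0 CPM (1.03 ± 0.41, adjusted p = 0.576). H2-T22 was at 33.3 to 79.0 CPM against 20.4 to 34.6 CPM and overlapped. Without Tie2Cre_9501 the class I median was 0.41, and 2 members were higher and 0 lower at an unadjusted p below 0.05. In that fit 295 of all 16042 genes were higher and 369 lower at that p.

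Of 30 interferon-gamma response genes tested, 25 had an estimate above 0 (median 0.71), against 41.6% of all genes and 59.3% of those with a mean of at least 10 CPM. At an unadjusted p below 0.05, 8 were higher (2.69% of all genes) and 0 lower, and 3 were higher without overlap (5.28% of all genes). Among genes with a mean of at least 10 CPM, 5.59% were higher at that p and 9.66% were higher without overlap. Cxcl9, a chemokine that attracts T cells through CXCR3, was at 490, 128, 114 and 411 CPM against 47.2, 102 and 89.7 CPM (1.84 ± 0.55, adjusted p = 0.576). Tie2Cre_H2Abf_9576 and Tie2Cre_H2Abf_9589 were far above the controls, and the other 2 only just. Those first 2 libraries also had the lowest TMM factors (0.523 and 0.602), and the part of scaling in their levels was not tested. Wars, a tRNA synthetase induced by interferon-gamma, was also highest in Tie2Cre_H2Abf_9576 and Tie2Cre_H2Abf_9589. It was at 299, 120, 154 and 326 CPM against 54.0, 131 and 37.7 CPM (1.59 ± 0.45), but overlapped. Highest in the same 2 libraries were the guanylate-binding protein genes Gbp2 (398, 169, 249 and 406 CPM against 95.6, 176 and 145 CPM) and Gbp4 (264, 132, 104 and 189 CPM against 46.9, 100 and 90.4 CPM). Of these Gbp2 overlapped. The list median was 0.69 without Tie2Cre_9501, and then 4 members were higher and 0 lower at an unadjusted p below 0.05. In that fit 295 of all 16042 genes were higher and 369 lower at that p. The type I interferon list gave another picture: 19 of 31 estimates were above 0, with a median of 0.17, and -0.04 without Tie2Cre_9501. Oas2, a sensor of double-stranded RNA, was at 89.8, 133, 71.7 and 131 CPM against 4.53, 48.8 and 43.2 CPM, without overlap (1.71 ± 0.62, adjusted p = 0.576).

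Tip cell genes, which mark the leading cells of vessel sprouts, had the most uniform direction of the endothelial lists. Of 26 tested, 25 had an estimate above 0 (median 1.04). Of these, 14 were higher and 0 lower at an unadjusted p below 0.05, and 15 were higher without overlap. Over all genes 41.6% had an estimate above 0, 2.69% were higher at that p and 5.28% were higher without overlap. Over the 4170 genes with a mean of at least 10 CPM these shares were 59.3%, 5.59% and 9.66%. None passed the adjusted threshold. General endothelial identity genes also lay mostly above 0, in 26 of 30 estimates (median 0.34), with 2 higher at an unadjusted p below 0.05. Apln, the secreted ligand of the apelin receptor, was at 688, 495, 416 and 773 CPM in Tie2Cre_H2Abf and 85.0, 163 and 262 CPM in Tie2Cre (1.80 ± 0.49, adjusted p = 0.576). Dll4, the Notch ligand of tip cells, was at 192, 253, 255 and 292 CPM against 71.4, 92.6 and 86.9 CPM (1.57 ± 0.42, adjusted p = 0.576), and its controls were close together. Trp53i11 was at 723, 673, 861 and 769 CPM against 83.9, 224 and 422 CPM (1.64 ± 0.43). In each of these the groups were separate. The median was 0.73 without Tie2Cre_9501, and then 6 members were higher at an unadjusted p below 0.05. In that fit 295 of all 16042 genes tested were higher at that p.

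Of 8 ligands and receptors of the VEGF family tested, 7 had an estimate above 0 (median 1.16). Of these 8 genes, 5 (Pgf, Kdr, Flt4, Nrp1 and Nrp2) are also in the tip cell list. Pgf, placental growth factor, was at 63.7, 19.0, 17.8 and 59.2 CPM against 0.378, 12.6 and 10.7 CPM (2.30 ± 0.68, adjusted p = 0.576). The lowest value is 1 count in Tie2Cre_9501, and without that library the difference was 1.78 ± 0.62. Vegfc, a ligand for the lymphatic receptor Flt4, was low, at 7.26, 7.45, 5.87 and 15.5 CPM against 0, 2.19 and 0.630 CPM. The decoy receptor Flt1 was at 556, 480, 593 and 786 CPM against 136, 477 and 301 CPM, so that the groups only just separated (0.99 ± 0.38). Among 16 Notch genes 11 had an estimate above 0 (median 0.39). The receptor gene Notch4 was at 289 to 419 CPM against 94.9 to 249 CPM, and the target gene Hey1 at 18.1 to 31.7 against 2.65 to 14.4 CPM. Neither of these overlapped. Tek, whose promoter drives the Cre and which encodes the Tie2 receptor, was at 32.8, 31.5, 58.7 and 41.8 CPM against 47.2, 101 and 65.9 CPM (-0.79 ± 0.46, adjusted p = 0.628) and overlapped.

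Genes of the basement membrane lay higher in 18 of 21 estimates (median 0.68, and 0.58 without Tie2Cre_9501). At an unadjusted p below 0.05, 7 were higher and 0 lower (2.69% of all genes were higher), and 10 were higher without overlap (5.28% of all genes). Of genes with a mean of at least 10 CPM, 59.3% had an estimate above 0, 5.59% were higher at that p and 9.66% were higher without overlap. Without Tie2Cre_9501, 2 members were higher and 1 was lower at that p. In that fit 295 of all 16042 genes were higher and 369 lower. Fn1, fibronectin, was at 2051, 418, 709 and 975 CPM against 82.0, 312 and 193 CPM (2.41 ± 0.53, adjusted p = 0.217). Tie2Cre_H2Abf_9576 was far above the other 3. Sparc, a matrix glycoprotein of remodelling tissue, was at 3357, 2595, 2888 and 3689 CPM against 1093, 1431 and 1993 CPM (1.06 ± 0.34, adjusted p = 0.576). Nid2 (305 to 502 against 69.9 to 226 CPM) and Lama4 (172 to 278 against 55.6 to 151 CPM), which encode a nidogen and a laminin chain, also did not overlap. The lists of tip cell and basement membrane genes share 5 members (Nid1, Nid2, Col4a1, Col4a2 and Lama4), so their counts are not separate.

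Fbln5 and Fbn1, which encode other matrix proteins, had estimates below 0. Fbln5, which organises elastic fibres, was at 15.8, 15.8, 30.3 and 16.1 CPM against 156, 109 and 76.5 CPM (-2.55 ± 0.50, adjusted p = 0.0977). Fbn1, fibrillin 1, was at 7.26, 2.54, 5.52 and 7.82 CPM against 36.7, 51.7 and 20.2 CPM (-2.64 ± 0.65, adjusted p = 0.44). Neither passed the threshold, and neither overlapped.

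The venous list had a median of -1.05 (10 of 15 estimates below 0), and -1.07 without Tie2Cre_9501. Members lower at an unadjusted p below 0.05 numbered 5 (5.86% of all genes), 1 was higher, and 4 were lower without overlap (3.76% of all genes). Fbln2 was the one that passed the adjusted threshold. Il6st, the gp130 subunit shared by interleukin 6 family receptors, was at 261, 144, 246 and 207 CPM against 492, 654 and 610 CPM (-1.45 ± 0.35, adjusted p = 0.404). All 4 lay clearly below the 3. Selp, P-selectin, was at 72.9, 62.3, 74.9 and 99.4 CPM against 150, 195 and 210 CPM (-1.26 ± 0.47). Ackr1, a chemokine scavenger of venules, was at 11.2, 18.8, 21.4 and 23.2 CPM against 51.4, 55.1 and 48.0 CPM (-1.47 ± 0.58). Lrg1, a secreted glycoprotein that modulates TGF-beta signalling, was at 58.6, 162, 134 and 121 CPM against 133, 338 and 373 CPM and overlapped through Tie2Cre_9501 (-1.24 ± 0.43). Against the direction of these, Vcam1 was at 123, 47.4, 61.0 and 135 CPM against 52.1, 43.0 and 8.56 CPM (1.41 ± 0.53, adjusted p = 0.576) and overlapped.

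**Figure D3:**
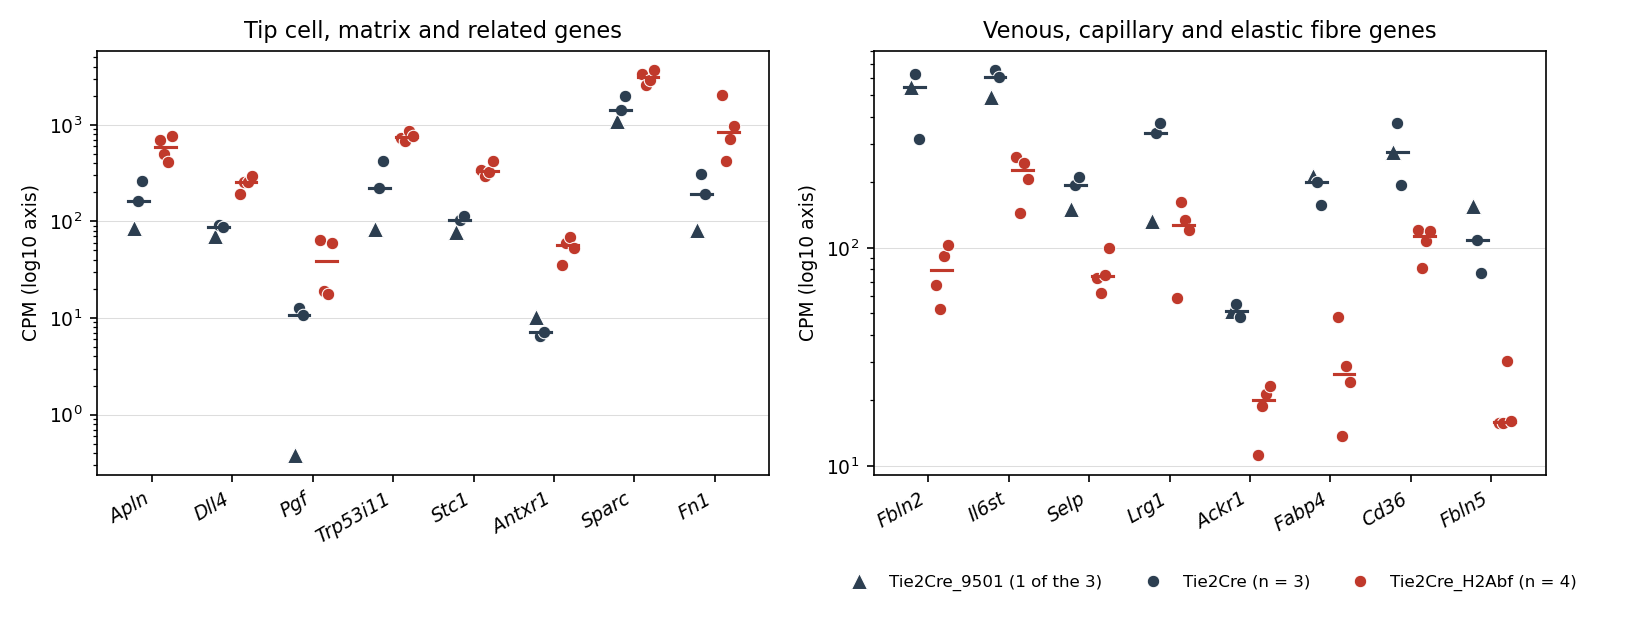
CPM (log10 axes) of 8 genes estimated higher (left) and 8 estimated lower (right) in Tie2Cre_H2Abf (red) than in Tie2Cre (dark), with Tie2Cre_9501 as a triangle and group medians as lines. Of these 16 genes Fbln2 and Fabp4 passed the threshold, and Lrg1 is the one whose groups overlap, because Tie2Cre_9501 lies at 133 CPM.

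Other vessel beds gave no common direction. The capillary and fatty acid uptake list was divided, with 8 estimates above and 9 below 0 (median -0.11). Next to Fabp4, the fatty acid receptor Cd36 was at 121, 81.1, 108 and 120 CPM against 275, 374 and 194 CPM (-1.39 ± 0.47, adjusted p = 0.576). Gpihbp1, which holds lipoprotein lipase on capillaries, was at 235, 413, 271 and 345 CPM against 92.6, 116 and 249 CPM (1.05 ± 0.42) and overlapped. In the arterial list (7 above, 10 below, median -0.09), the peptide gene Edn1, endothelin 1, was at 6.73, 4.23, 4.09 and 6.08 CPM against 9.83, 28.2 and 32.5 CPM (-2.15 ± 0.64), and the netrin receptor Unc5b at 107 to 157 CPM against 30.6 to 61.5 CPM (1.56 ± 0.58). Pecam1, which encodes the sorted surface protein CD31, was at 1044, 909, 1136 and 1360 CPM against 714, 1377 and 879 CPM (0.17 ± 0.35, adjusted p = 0.916). The groups overlapped fully. Of the 30 endothelial identity genes 26 had an estimate above 0 (median 0.34), and 22 without Tie2Cre_9501 (median 0.22). Over all genes 41.6% were above 0, and 59.3% of those with a mean of at least 10 CPM.

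Among the abundant genes with the smallest p-values on the higher side were Stc1 and Antxr1, which did not pass the threshold. Stc1, the secreted glycoprotein stanniocalcin 1, was at 344, 297, 328 and 426 CPM against 78.2, 104 and 113 CPM (1.82 ± 0.40, adjusted p = 0.217). Antxr1, also called tumour endothelial marker 8, was at 35.1, 59.4, 69.1 and 53.3 CPM against 10.2, 6.58 and 7.18 CPM (2.77 ± 0.62, adjusted p = 0.217), and 2.97 ± 0.73 without Tie2Cre_9501. Both groups were tight and well apart for these genes. Timp3, an inhibitor of metalloproteases, was at 361 to 714 CPM against 114 to 299 CPM, Abcc9, a potassium channel subunit, at 23.4 to 86.3 against 4.53 to 14.1 CPM, and Wscd1 at 19.3 to 50.2 against 0.853 to 6.42 CPM. On the lower side Dnm3, a dynamin, was at 15.6, 15.2, 24.0 and 16.1 CPM against 109, 80.9 and 63.6 CPM (-2.25 ± 0.47, adjusted p = 0.208). The adhesion gene Cadm3 was at 2.83 to 7.45 CPM against 31.7 to 54.1 CPM, and Tgfbr3, the TGF-beta coreceptor betaglycan, at 11.4 to 52.5 against 80.9 to 154 CPM. None of these overlapped. Without Tie2Cre_9501 the leading higher genes were Ttc9 (16.8, 18.3, 23.3 and 22.6 CPM against 1.58 and 0.882 CPM, 4.01 ± 0.94, adjusted p = 0.581) and Peg3 (62.1 to 127 against 6.42 to 24.0 CPM, 2.51 ± 0.61, adjusted p = 0.65). Tie2Cre_9501 itself was at 6.42 CPM for Ttc9 and 63.9 CPM for Peg3.

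Genes by which endothelial cells meet leukocytes were mixed. In the chemokine list 8 of 17 estimates were above 0 (median -0.01, and 0.30 without Tie2Cre_9501). Cxcl10, another CXCR3 ligand, was at 66.9 to 228 CPM against 43.5 to 84.0 CPM and overlapped, and the chemokine receptor Cxcr4 was at 132, 339, 331 and 195 CPM against 28, 66.5 and 98.1 CPM (1.95 ± 0.68, adjusted p = 0.576). In the adhesion list 11 of 21 estimates were above 0 (median 0.15). Of 17 immune checkpoint and adenosine genes 13 were above 0 (median 0.55, and 0.27 without Tie2Cre_9501). Cd274, the checkpoint ligand PD-L1, was at 127, 57.2, 54.8 and 97.0 CPM against 26.5, 39.4 and 54.8 CPM, so that the lowest of the 4 and the highest of the 3 nearly met (1.06 ± 0.47). Nt5e, the adenosine-forming enzyme CD73, was at 53.5, 19.8, 34.7 and 70.1 CPM against 14.7, 18.4 and 2.27 CPM (1.92 ± 0.64, adjusted p = 0.576).

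Markers of other cells were low and differed in part between the groups, and their part in the results above was not tested. The 18 fibroblast genes summed to 20 to 47.4 CPM in Tie2Cre_H2Abf and 61.5 to 138 CPM in Tie2Cre, of which Dcn reached 18.5 CPM in Tie2Cre_9501 and at most 1.60 CPM elsewhere, while Col1a1 was at 0 to 0.756 CPM in all 7. Fbn1 is in that list, and without it the sums were 12.7 to 44.9 against 40.8 to 102 CPM and overlapped. Fibroblasts are known to express Fbln2 too. The 16 mural cell genes summed to 47.0 to 120 CPM against 95.2 to 114 CPM. That list holds Abcc9, described above, and without it, a choice made after seeing the values, the sums were 23.6 to 34.2 against 81.0 to 109.6 CPM and did not overlap. Tagln, a smooth muscle protein, was at 1.59, 0.169, 2.14 and 3.33 CPM against 26.8, 15.7 and 35.3 CPM (-3.82 ± 1.23, adjusted p = 0.576), and the pericyte gene Rgs5 at 0.724 to 4.40 against 0.756 to 19.5 CPM. Pdgfrb stood at 48.0 CPM in Tie2Cre_9501 and at 0.145 to 1.35 CPM in the other 6 libraries. The 22 T and NK cell genes summed to 6.27 to 25.3 CPM against 9.02 to 37.8 CPM, with Cd4 at 0 in 3 of the 4 Tie2Cre_H2Abf libraries and at 3.74 CPM in the other one, against 1.01 to 5.29 CPM. The 20 tumour epithelial genes summed to 4.40 to 17.1 CPM against 8.78 to 63.1 CPM, with Epcam at 0 in 6 of 7. The 13 adipocyte genes summed to 117 to 156 CPM against 271 to 338 CPM, and without Fabp4 to 88.1 to 117 against 94.5 to 137 CPM, which overlapped. Lipe, a lipase of fat cells, was at 36.8 to 54.9 CPM against 53.3 to 62.4 CPM and overlapped. A count of 0 allows up to 0.366 to 1.13 CPM (3 counts), a limit for counting error only.

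Leaving out Tie2Cre_9501 moved the median of all tested genes from -0.24 to 0.00 and left 2 calls, H2-Ab1 and Fbln2. At an unadjusted p below 0.05 the fit without it held 295 higher and 369 lower genes, against 400 and 871 with it. With the 2 groups alone and without that library, edgeR called 0 genes, with 592 higher and 508 lower at that level, and the adjusted p of H2-Ab1 and of Fbln2 was 0.0883. The share of counts on satellite-like genes, entered as a covariate, also left H2-Ab1 and Fbln2. Among lists, the satellite-like genes went from a median of -2.92 to 0.10 and fibroblast genes from -0.88 to -0.13, while tip cell (1.04 to 0.73), interferon-gamma (0.71 to 0.69), class II (0.83 to 0.79) and venous genes (-1.05 to -1.07) kept their direction. These last lists kept the sign of their median in all 20 alternative settings. So did the fibroblast list and several others, among them the mural cell, leukocyte adhesion and coagulation lists. The settings reuse the same libraries, so keeping a sign does not set these lists apart.

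**Figure D4:**
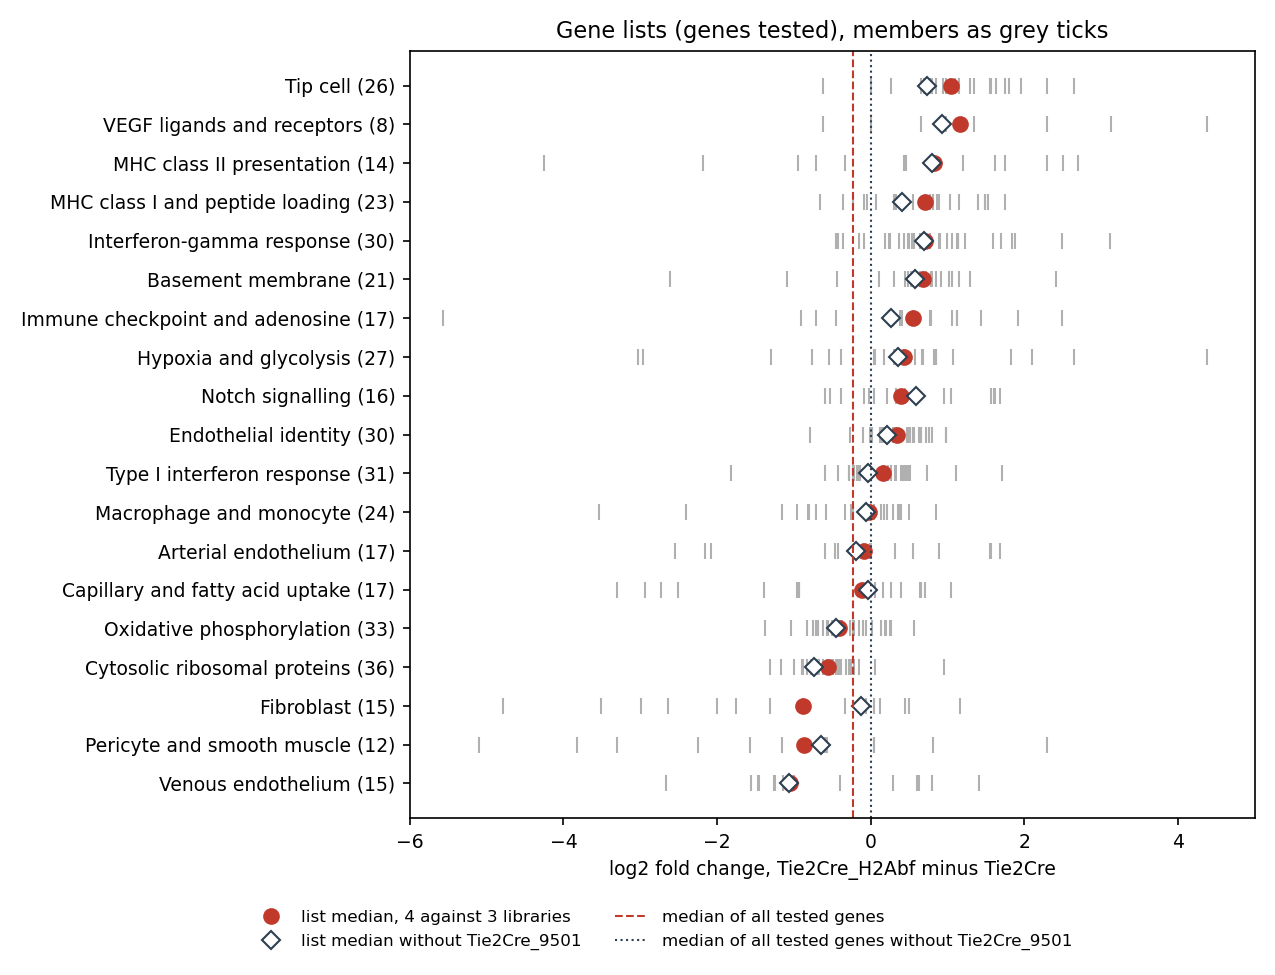
Log2 fold change (Tie2Cre_H2Abf minus Tie2Cre) of the tested members of 19 gene lists (grey ticks), with list medians over all 7 libraries (red) and without Tie2Cre_9501 (open diamonds). The tip cell and VEGF medians are 1.04 and 1.16 and the venous median is -1.05, while the fibroblast median moves from -0.88 to -0.13 without Tie2Cre_9501.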

How the data were processed

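The software named in the submitters' processing notes is bcl2fastq 2.17, STAR, RSEM 1.2.28 and DESeq2, on build GRCm38. Neither the STAR version nor the annotation release was stated there. Per the labels' protocols, RNA was amplified by MATQ and tagged with Nextera XT, a kit that does not mark strand, so antisense and overlapping genes cannot be told apart. The authors deposited for each library an RSEM expected count (an estimated count, not normalized), a TPM value and an effective length per gene, per the file headers. TPM values, deposited by the authors, were read but not tested, and effective lengths served as offsets in an alternative only.

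Of the expected counts 4.45% were not whole and all were rounded. GENCODE M21 gave a symbol for 46488 of 46983 gene IDs. Genes were tested with edgeR 4.0.16 by quasi-likelihood (R 4.3.3; robust, TMM factors, filterByExpr by background), fitted over all 20 libraries in 6 backgrounds that share 1 estimate of the spread, with Benjamini-Hochberg adjustment over the 14875 genes kept and a threshold of 0.05. Standard errors come from the F statistic, and CPM uses effective library sizes. Replicate libraries differed by 15.9 to 208 times the sampling noise (chi-square per degree of freedom), and all were kept as separate samples. The code was tested on simulated data.

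The members, the 38 gene lists, the motifs and the rules were chosen with earlier results of these data known. Genes are named by rule: H2-Ab1 and Pecam1; protein-coding genes with a mean of at least 10 CPM, up to 12 per direction past the threshold, filled to 8 in order of p where fewer passed; up to 6 per direction, filled to 3, in the fit without Tie2Cre_9501; and the 4 members of a list with the smallest p and at least 1 CPM. H2-Aa, H2-Eb1, Ciita and Tek, and the single marker genes, were named after their values were seen. Groups came from the titles. Alternatives were DESeq2 1.42.0, limma 3.58.1 (voom), other scalings, filters and gene sets, a covariate, fewer libraries, and each library left out.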

Additional observations from a re-analysis of the deposited data

Results flagged for a closer look

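In 5 of the 66 genes named with values, 1 of the 4 Tie2Cre_H2Abf libraries stood apart from the other 3 by Dixon's ratio; chance marks about 1 group in 20. Tie2Cre_H2Abf_9583 was high in Fbln5 (30.3 CPM) and Dnm3 (24.0 CPM), still below every Tie2Cre library. Tie2Cre_H2Abf_9589 was high in Vegfc (15.5 CPM), Tie2Cre_H2Abf_9582 in Pdgfrb (1.35 CPM), and Tie2Cre_H2Abf_9576 was low in Rpl3 (70.1 CPM).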

How the results depend on the processing

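Genes called numbered 3 (0 higher, 3 lower). DESeq2 called 57 (22 higher, 35 lower), limma-voom 15 (1 and 14), a filter of 5 CPM in 3 of the 7 libraries 10 (3 and 7), no filter 9 (1 and 8), RLE factors 5 (0 and 5), only the 7 libraries 1 (0 and 1), and only the 2 groups without Tie2Cre_9501 0 (0 and 0). Leaving out 1 library at a time gave 1 to 3 calls (0 to 1 higher, 1 to 3 lower): without Tie2Cre_9502 or Tie2Cre_H2Abf_9582 Fbln2 lost its call, and without any one of 6 libraries (all but Tie2Cre_H2Abf_9576) Fabp4 did. H2-Ab1 kept its direction in all 20 alternatives and its call in 17, Fbln2 its call in 17 and Fabp4 in 9. H2-Ab1 missed the threshold with effective-length offsets (-3.24, adjusted p = 0.0908), in only the 7 libraries (-4.27, adjusted p = 0.128) and in only the 2 groups without Tie2Cre_9501 (-4.62, adjusted p = 0.0883); leaving out 1 library gave -4.84 to -3.73. The causes were not tested. Pecam1 (0.17) changed sign in the 2 groups without Tie2Cre_9501 (-0.0287), with the satellite-like covariate (-0.0361) and without the 2 satellite-rich libraries (-0.0427), and leaving out 1 library gave -0.0226 (Tie2Cre_9501) to 0.51 (Tie2Cre_9502). DESeq2 also called Stc1, Fn1, H2-Q7, Antxr1, Il6st, Fbln5, Dll4 and Apln, among others. RLE factors moved the median of all genes from -0.24 to -0.43 and upper-quartile factors to -0.13. Under the alternatives, 688 list medians stayed within the spread between libraries and 47 moved by more. No paired analysis was possible because each library number is used once. Low counts limit Ciita, Vegfc and the markers of other cells.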

Other observations

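Estimates for genes of protein synthesis and respiration depended on 1 library, Tie2Cre_9504. Of 36 cytosolic ribosomal protein genes 34 had an estimate below 0 (median -0.55, -0.73 without Tie2Cre_9501 and -0.10 without Tie2Cre_9504), yet 0 passed the threshold by edgeR and 1 was lower at an unadjusted p below 0.05. Rpl10, a protein of the large subunit, was at 22.3, 29.0, 25.6 and 12.3 CPM against 33.3, 35.8 and 96.5 CPM (-1.31 ± 0.54), and Rpl3 at 70.1 to 79.6 against 83.6 to 222 CPM. The highest values of both were in Tie2Cre_9504, whose summed ribosomal protein level, 4046 CPM, was above the 1610 to 2649 CPM of the other 6 libraries. Of 33 oxidative phosphorylation genes 26 were below 0 (median -0.41, and 0.03 without Tie2Cre_9504), with 0 at that level in either direction.

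Glycolytic genes leaned the other way, with 21 of 27 hypoxia and glycolysis genes above 0 (median 0.43). Without Tie2Cre_9501 these were 17 (median 0.36). The share above 0 was 59.3% among genes with a mean of at least 10 CPM. At an unadjusted p below 0.05, 5 of the 27 were higher and 2, Pfkfb4 (-3.02) and Ndrg1 (-0.77), were lower. Among all genes tested, 2.69% were higher and 5.86% lower at that level. Without Tie2Cre_9501, 2 of the 27 were higher and 2 lower, against 295 and 369 of all 16042 genes in that fit. Pfkfb3, a regulator of glycolytic flux in endothelial cells, was at 221, 67.7, 87.7 and 142 CPM against 32.9, 36.6 and 40.3 CPM (1.83 ± 0.50, adjusted p = 0.576). Gapdh was at 568, 774, 578 and 819 CPM against 298, 361 and 478 CPM (0.85 ± 0.36). Neither gene overlapped between the groups, and Pfkfb3 spread widely among the 4 Tie2Cre_H2Abf libraries. Of 34 cell cycle genes 23 were above 0 (median 0.32), and 17 without Tie2Cre_9501 (median 0.06).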
